A study of Homo sapiens with 8 samples.

Results

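Replication-dependent histone genes make the core histones H2A, H2B, H3 and H4 and the linker histone H1 that package newly copied DNA. Their mRNAs are made mainly in S phase and are unusual in ending in a conserved stem-loop in place of a poly(A) tail. The stem-loop is bound by SLBP, and several of these genes can also yield polyadenylated transcripts. Histone genes were examined here in ovarian carcinoma cells after silencing of CSE1L, which recycles importin alpha out of the nucleus for further rounds of import. They were taken as all probes whose gene symbol began with H1-, H2AC, H2BC, H3C or H4C, or carried an older HIST1H, HIST2H or HIST3H name. The rule gave 67 probes of 65 genes, among 24531 probes and 16922 named genes on the array. H3-4, an H3 gene known from testis, entered through its older name HIST3H3, and H1-10 is a linker histone made independently of replication.

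The cells were the established human ovarian cancer lines TOV-21G and SK-OV-3. In each line, CSE1L siRNA was compared with scrambled control siRNA, 72 h after transfection, on 2 arrays per group numbered as experiments 1 and 2. The labels do not say whether experiments were separate cultures, so the p-values reflect array-to-array spread alone, and this may be technical. CSE1L itself was measured at 8.80 and 7.72 in silenced TOV-21G cells, against 13.02 and 11.65 in TOV-21G controls, on the log2 intensity scale after normalisation. In SK-OV-3 cells CSE1L stood at 10.51 and 8.99 after silencing, against 12.04 and 12.56 in controls. The CSE1L difference was -4.08 in TOV-21G (SE 0.63, limma adjusted p = 0.0257) and -2.55 in SK-OV-3 (adjusted p = 0.262), so that it passed the threshold of 0.05 in TOV-21G and not in SK-OV-3. Its array values did not overlap between silenced and control cells in either line. The TOV-21G call of CSE1L was lost on leaving out either TOV-21G control array (adjusted p = 0.162 and 0.0767) or the silenced TOV-21G array of experiment 2 (adjusted p = 0.112).

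Between 9206 and 9820 probes were detected per array, where detected means a detection p-value below 0.01 against the array's negative controls. Pearson's r between the 2 arrays of a group, over genes, was 0.972 to 0.982. Of the epithelial markers 5 of 6 were detected on at least 1 array, 3 of them on all 8, and EPCAM on none. The ovarian carcinoma markers PAX8 and WT1 were detected, 1 of them on all 8 arrays, and MUC16 was not. Among 5 fibroblast markers COL1A1 and DCN were detected, 1 of them on all 8 arrays. CD14 alone was detected among 3 leukocyte markers on the array, and none of 3 endothelial markers was.

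Most histone probes gave no signal above background. Of the 67 probes, 47 were detected on no array, which is 70.1%, against 52.5% of all probes. A further 5 were detected on 1 array, and 9 on all 8. Detection in at least 2 arrays, the condition for testing, was met by 15 histone probes of 14 genes. That is 22.4% of the histone probes, against 44.4% of all probes. The 52 untested probes had raw intensities of 102 to 269 with a median of 148, while the tested ones spanned 134 to 36557. An undetected probe says only that its transcript was not measurable with this oligo and labelling. The labels describe a MessageAmp amplification kit, and such kits prime from poly(A) tails, which most replication-dependent histone mRNAs lack. How the priming bears on detection was not tested.

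The classes differed in how many genes could be tested. Of the linker histones, 1 of 9 genes passed, and it was H1-10, while H1-1, H1-2, H1-3, H1-4 and H1-5 were detected on no array. H2A had 5 tested genes of 15, which were H2AC6, H2AC8, H2AC18, H2AC20 and H2AC25. H2B had 3 of 17, namely H2BC5, H2BC11 and H2BC12. H3 had 3 of 11, namely H3C3, H3C7 and H3C10, and H4 had 2 of 13, namely H4C3 and H4C8. The 5 probes detected on a single array, those of H2AC17, H2BC8, H3C1, H3C14 and H4C14, were all detected on the same TOV-21G control array, that of experiment 2. It had 18 histone probes detected, and the other 7 arrays had 10 to 14.

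**Figure D1:**
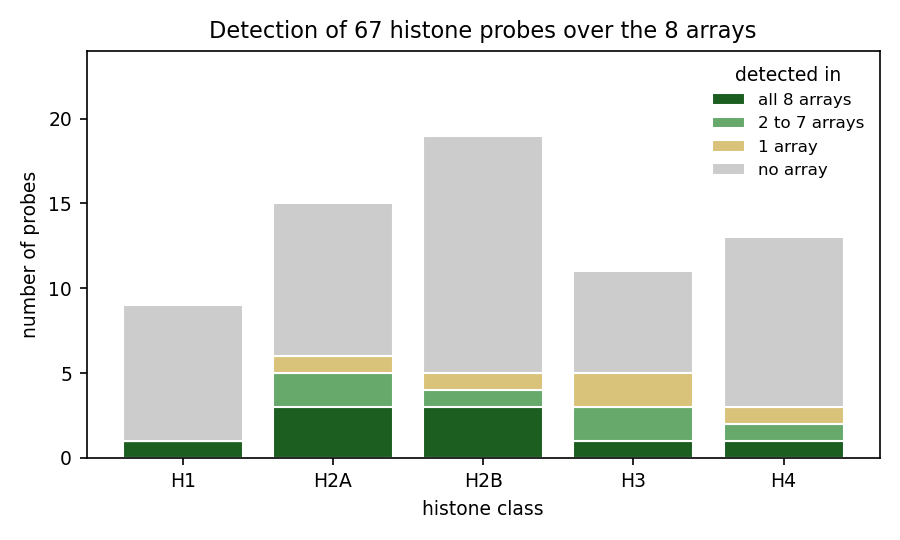
Number of histone probes (y axis) in each histone class (x axis), split by how many of the 8 arrays detected them. Grey, the probes detected on no array, is the tallest segment in every class, and 9 of 67 probes are in the segment for all 8 arrays.

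Tested and untested genes lie together in the histone gene clusters. By RefSeq on GRCh38.p14, 51 of the 65 genes lie on chromosome 6, between positions 25726063 and 27893891, and 10 of these 51 were tested. Chromosome 1 holds 10 genes, of which 3 were tested, chromosome 3 holds 2 with 1 tested, and chromosome 12 holds 2 with none tested. The annotated span from start to end had a median of 502 bases in tested genes and 495 bases in untested ones. Both H2BC5 (chr6:26158121-26171349, plus strand) and H2BC12 (chr6:27138293-27146858, minus strand) have 3 annotated transcripts. With H1-10 they are the 3 of 14 tested genes that span more than 1000 bases, as do 6 of 51 untested genes. H2A and H2B genes often stand head to head on a shared promoter. Among the 60 histone genes with a promoter entry, 10 such pairs had 215 to 248 bases between their starts. H2AC12 (chr6:27147106-27147562), which lies beside the start of H2BC12, had no promoter entry. Whether these 2 genes form a further pair was therefore not examined. In none of the 10 pairs were both genes tested, and in 5 of them 1 gene was. In these 5 pairs the tested gene was H2AC6 (beside H2BC4), H2AC8 (beside H2BC8), H2AC20 (beside H2BC21), H2AC25 (beside H2BC26) or H2BC11 (beside H2AC11).

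Promoters of 4 members are shown because the results below turn on them. H2BC5 is the member that passed the test after silencing, H2AC6 lay just outside it, and H2BC12 was detected in SK-OV-3 controls but not in TOV-21G controls, unlike its neighbour H2BC11, which was detected on all arrays. Each is the 250 bases before the annotated start, 5′ to 3′ on the gene's strand, from RefSeq on GRCh38.p14. Capitals mark the CCAAT box (CCAAT, or ATTGG on the other strand), the TATA box core (TATAAA, or TTTATA) and the octamer (ATTTGCAT, or ATGCAAAT), and the CCAAT box and the octamer are the known recognition sequences of NF-Y and POU2F1. Matches of the TATA core on both strands can overlap.
H2BC5 (chr6:26157871-26158120, plus strand): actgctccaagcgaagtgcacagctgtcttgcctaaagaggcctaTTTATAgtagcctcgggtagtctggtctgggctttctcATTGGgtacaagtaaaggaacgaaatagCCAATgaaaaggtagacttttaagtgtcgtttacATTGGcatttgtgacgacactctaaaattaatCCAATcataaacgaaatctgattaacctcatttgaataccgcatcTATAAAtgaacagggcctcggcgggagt
H2AC6 (chr6:26123922-26124171, plus strand): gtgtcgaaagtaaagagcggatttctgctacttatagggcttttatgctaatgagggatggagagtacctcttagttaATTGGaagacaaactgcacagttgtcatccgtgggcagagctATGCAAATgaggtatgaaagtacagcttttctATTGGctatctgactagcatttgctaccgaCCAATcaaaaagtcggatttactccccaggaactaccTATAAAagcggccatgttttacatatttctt
H2BC12 (chr6:27146859-27147108, minus strand): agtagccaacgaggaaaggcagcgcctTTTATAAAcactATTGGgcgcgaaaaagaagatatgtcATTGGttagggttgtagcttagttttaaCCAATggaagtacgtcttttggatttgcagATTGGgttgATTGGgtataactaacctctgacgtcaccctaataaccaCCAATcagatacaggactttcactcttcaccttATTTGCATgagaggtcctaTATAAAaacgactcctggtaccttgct
H2BC11 (chr6:27132796-27133045, minus strand): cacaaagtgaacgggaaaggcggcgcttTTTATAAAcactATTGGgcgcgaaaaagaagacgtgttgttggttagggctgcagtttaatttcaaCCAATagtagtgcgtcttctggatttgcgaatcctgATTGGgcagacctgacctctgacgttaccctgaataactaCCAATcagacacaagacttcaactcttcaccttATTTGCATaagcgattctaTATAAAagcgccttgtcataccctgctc

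The H2BC5 window holds 4 CCAAT boxes, and no match to the octamer. The H2AC6 window holds 3 CCAAT boxes and 1 octamer. Those of H2BC12 and H2BC11 hold 6 and 4 CCAAT boxes and 1 octamer each, with the octamer starting 46 and 47 bases before the gene. Over the 60 histone genes with a promoter entry, 85% had a CCAAT box in the window, against 33% of 27305 promoters of the same length. The TATA core was found in 65% of the histone promoters, against 11.1% of all promoters. The octamer was in 41.7% of them, against 1.66%, and it was found in 14 of 17 H2B and 10 of 14 H2A promoters. In the other classes it was found in 1 of 9 H3 promoters and in none of the H1 and H4 promoters. The windows of head-to-head H2A and H2B genes cover much the same bases, so 1 match can count for both genes. In the tested H2A genes H2AC6, H2AC8 and H2AC20, the octamer was matched on the other strand. H2AC12, H3C11, H3C12, H4C1 and H4C3 had no entry.

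After CSE1L silencing in TOV-21G, a single member, the H2B gene H2BC5, passed the test, as higher. That is 1 of 14 tested members, against 3.17% of all 9377 genes and unnamed probes tested in this comparison. The median log2 difference of the 14 members was 0.54, against 0.00 over all genes tested, and 10 of the 14 were above 0, against 50.5% of all genes. That member median was 0.10 without the silenced array of experiment 2, 0.26 without the control array of experiment 1, 0.88 without the control array of experiment 2 and 0.035 over all 65 genes with no detection filter. At an unadjusted p below 0.05, 8 members were counted, or 57.1% of the 14, against 19.9% of all genes tested. Of these, 6 were higher, against 9.36% of all genes, and 2 lower, against 10.5%. The arrays of silenced and control cells did not overlap for 8 of the 14 members, against 48.9% of all genes tested. Among the 6 higher members, H2AC8 was detected on 2 silenced TOV-21G arrays and on 1 TOV-21G control array. H2AC8 thus met the detection filter only through silenced cells, so a higher value was partly built into its selection. H2AC8 also enters the median and the count of members without overlap. The 14 are the members that passed the detection filter and do not stand for the 65. By class, the median was 0.88 in H2A (5 of 5 above 0, H2AC8 among them) and 0.77 in H2B (3 of 3). It was -0.003 in H3 (1 of 3 above 0), -0.44 in H4 (1 of 2) and -0.88 in H1 (0 of 1). In all these RNA extracts, fewer cells making a transcript and less RNA per cell cannot be told apart.

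**Figure D2:**
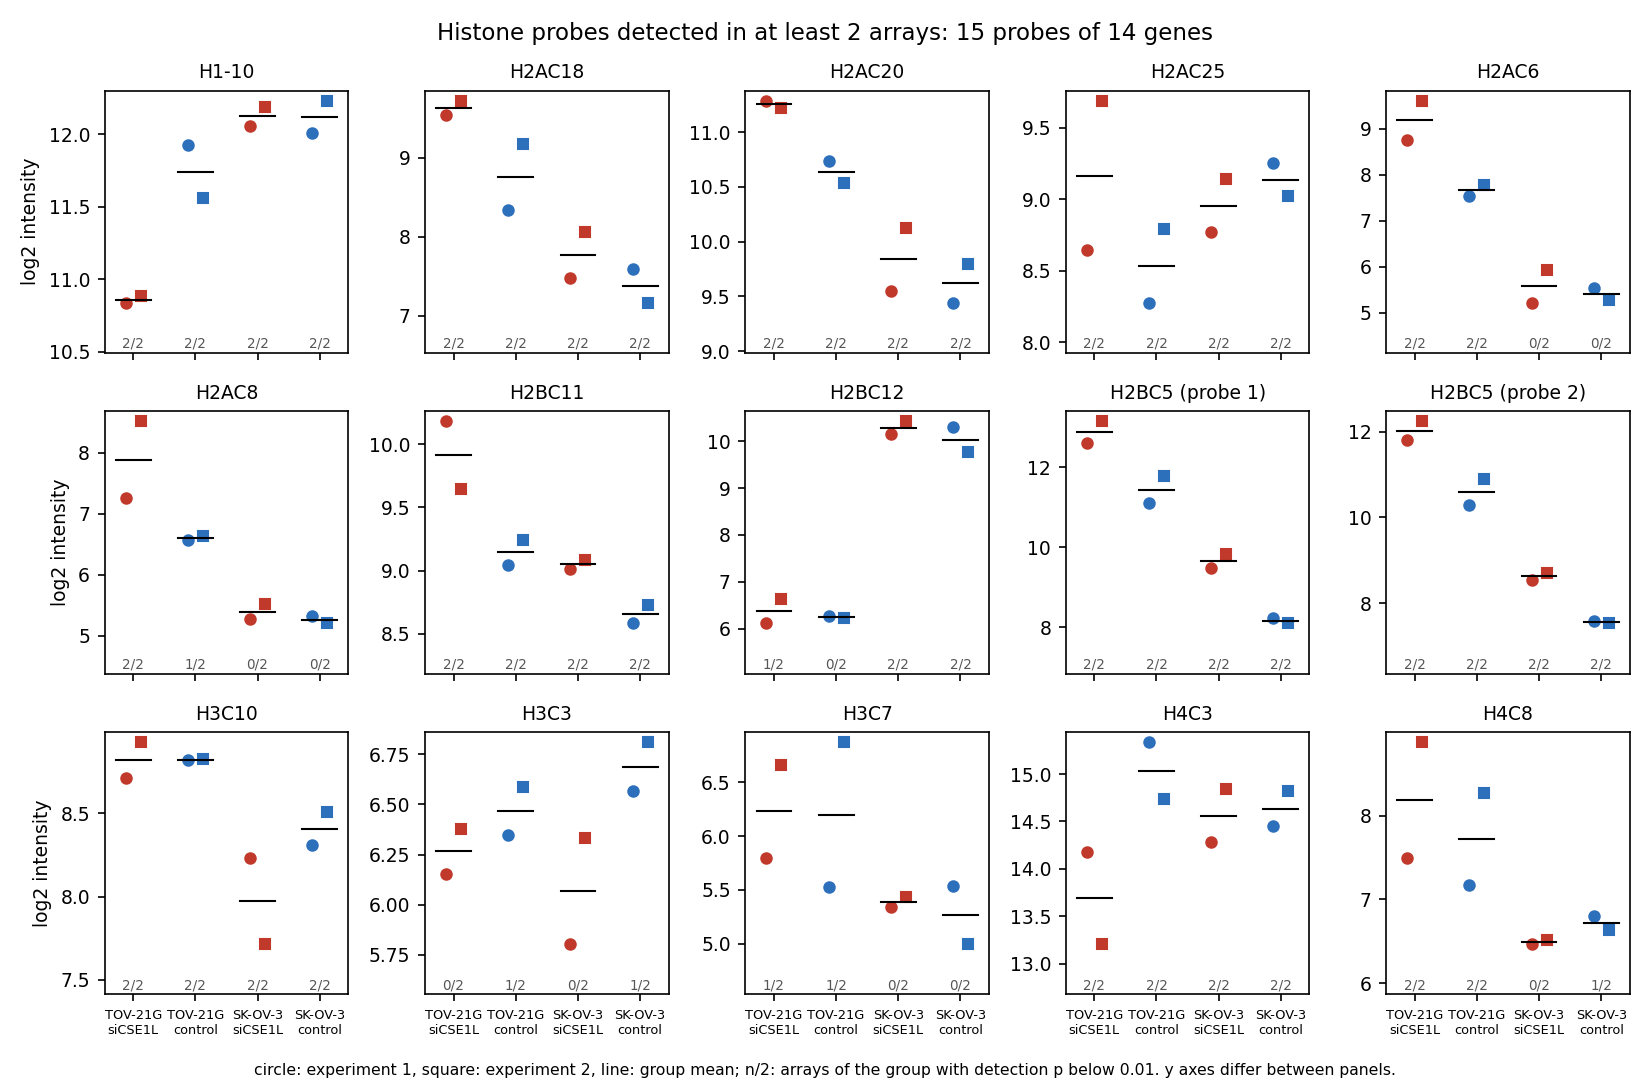
Normalised log2 intensity (y axis, with a scale of its own in each panel) of the 15 histone probes detected in at least 2 arrays, in TOV-21G and SK-OV-3 cells with CSE1L siRNA (red) or control siRNA (blue). Circles are experiment 1, squares experiment 2, lines group means, and the fractions count the arrays that detected the probe. Both detected H2BC5 probes lie higher in silenced than in control cells in both lines, and H2BC12 is near background in TOV-21G.

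H2BC5, which encodes an H2B core histone, was the member past the threshold. Its intensity was 12.61 and 13.15 in silenced TOV-21G cells, against 11.10 and 11.77 in control TOV-21G cells. The silenced arrays were both above the control arrays, by 1.51 in experiment 1 and 1.38 in experiment 2. H2BC5 thus rose by 1.44 on the log2 scale (SE 0.30, 2.72-fold, limma adjusted p = 0.0467). In SK-OV-3 cells it stood at 9.49 and 9.83 after silencing, against 8.23 and 8.09 in controls. The difference of 1.50 (SE 0.30) was close in size to that in TOV-21G and the arrays did not overlap, but it did not pass the test there (adjusted p = 0.197). The 2 differences were -0.05 apart (TOV-21G minus SK-OV-3, 95% interval -1.04 to 0.93, adjusted p = 0.984), and that interval spans a difference of about 1 log2 unit in either direction. Averaged over both lines, H2BC5 was 1.47 higher after silencing (SE 0.21, adjusted p = 0.0305), and it was 1 of 14 members called on that average, against 2.14% of all genes tested. The averaged call was lost on leaving out 1 array in turn (adjusted p 0.0667 to 0.113), except for the silenced TOV-21G array of experiment 1 (0.0397).

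A second H2BC5 probe, for the same RefSeq transcript, gave 11.82 and 12.24 in silenced TOV-21G cells, against 10.30 and 10.91 in controls. In SK-OV-3 cells this probe gave 8.55 and 8.70 after silencing, against 7.58 and 7.53 in controls. Both probes therefore ordered the 4 groups alike. With all probes fitted as themselves, the second H2BC5 probe was 1.43 higher in silenced TOV-21G cells (SE 0.27, adjusted p = 0.0363) and 1.08 higher in silenced SK-OV-3 cells (adjusted p = 0.277). Another H2BC5 probe, annotated to another RefSeq transcript of the gene, was detected on no array, with raw intensities of 108 to 154. The H2BC5 call in TOV-21G was lost on leaving out any 1 of the 8 arrays, with adjusted p between 0.0640 and 0.239 and a log2 difference between 1.12 and 1.78. It also missed the threshold under median scaling (adjusted p = 0.0600). With the experiment number as a block it passed (adjusted p = 0.0261).

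None of the 5 tested H2A genes passed the test in TOV-21G, where all had a higher mean after silencing and the arrays of H2AC25 overlapped. H2AC6 had 8.76 and 9.62 in silenced TOV-21G cells, against 7.54 and 7.79 in controls. Its difference was 1.52 (SE 0.35, adjusted p = 0.0594), and 6 of 18 alternative settings brought H2AC6 past the threshold, among them the replicate block (adjusted p = 0.0437) and median scaling (adjusted p = 0.0348). In SK-OV-3 cells H2AC6 was detected on no array, so no fold is given. H2AC8 had 7.25 and 8.51 in silenced TOV-21G cells, against 6.57 and 6.64 in controls, a difference of 1.28 (SE 0.38, adjusted p = 0.118). Its silenced arrays stood nearly as far apart as the group means, and H2AC8 was detected on no SK-OV-3 array.

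H2AC18 had 9.54 and 9.72 in silenced TOV-21G cells, against 8.33 and 9.17 in controls, a difference of 0.88 (SE 0.34, adjusted p = 0.204). H2AC20 had 11.29 and 11.22 in silenced TOV-21G cells, against 10.74 and 10.53 in controls, a difference of 0.62 (SE 0.26, adjusted p = 0.239). Neither gene's arrays overlapped between the groups in TOV-21G. In SK-OV-3 both overlapped, with differences of 0.39 for H2AC18 and 0.22 for H2AC20. H2AC25 had 8.64 and 9.69 in silenced TOV-21G cells, against 8.28 and 8.80 in controls, and these overlapped (difference 0.63, adjusted p = 0.397). In SK-OV-3 the H2AC25 difference was -0.18 (adjusted p = 0.919).

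The remaining H2B genes did not pass either. H2BC11 had 10.18 and 9.65 in silenced TOV-21G cells, against 9.05 and 9.24 in controls, a difference of 0.77 (SE 0.24, adjusted p = 0.130). In SK-OV-3 cells H2BC11 had 9.01 and 9.09 after silencing, against 8.58 and 8.73 in controls, a difference of 0.40 (adjusted p = 0.649). The groups did not overlap in either line. H2BC12 had 10.15 and 10.42 in silenced SK-OV-3 cells, against 10.29 and 9.77 in controls, and these overlapped (difference 0.25, adjusted p = 0.829). In TOV-21G it was detected on 1 silenced array and on no control array, and no fold is given.

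The linker histone gene H1-10 had 10.84 and 10.88 in silenced TOV-21G cells, against 11.92 and 11.56 in controls. Both silenced arrays were lower, and the difference was -0.88 (SE 0.22, adjusted p = 0.0731), which missed the threshold. In SK-OV-3 cells H1-10 had 12.06 and 12.19 after silencing, against 12.01 and 12.23 in controls, a difference of 0.00 (adjusted p = 0.997). The TOV-21G difference minus the SK-OV-3 difference was -0.88, with an adjusted p of 0.392.

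H4C3, a core H4 gene, had 14.18 and 13.21 in silenced TOV-21G cells, against 15.33 and 14.73 in controls. The groups did not overlap, and the difference was -1.34 (SE 0.38, adjusted p = 0.110). With the experiment number as a block, H4C3 passed as lower (adjusted p = 0.0265), and its differences within experiments were -1.16 and -1.53. In SK-OV-3 cells H4C3 had 14.28 and 14.84 after silencing, against 14.45 and 14.82 in controls (difference -0.07, adjusted p = 0.967), a sign that turned under median scaling. H4C8 had 7.49 and 8.87 in silenced TOV-21G cells, against 7.17 and 8.27 in controls, and these overlapped (difference 0.46, adjusted p = 0.670).

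No H3 gene passed the test in either line. H3C10 had 8.71 and 8.93 in silenced TOV-21G cells, against 8.82 and 8.83 in controls (difference 0.00, adjusted p = 0.997). In SK-OV-3 cells H3C10 had 8.23 and 7.71 after silencing, against 8.31 and 8.51 in controls, a difference of -0.44 (SE 0.24, adjusted p = 0.601). H3C3 and H3C7 were each detected on 2 arrays in all. In TOV-21G, H3C3 was detected on no silenced array and on 1 control array, and no fold is given. H3C7 was detected there on 1 array of each group, with 5.80 and 6.66 after silencing, against 5.52 and 6.87 in controls, and these overlapped.

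With the replicate block, 3 of 14 members were called in TOV-21G, H2BC5 and H2AC6 higher and H4C3 lower, against 6.29% of all genes tested in that fit. On the average of both lines the block called 2 of 14 members, against 5.52% of all genes. Which H2A, H2B, H3 and H4 gene a probe reads is uncertain, because genes within a class encode nearly identical proteins. Whether a probe binds transcripts of several copies was not checked, as no probe sequences were given.

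SK-OV-3 had no member past the threshold in limma, against 0.0107% of all genes tested, which was 1 gene. At an unadjusted p below 0.05, 2 of the 14 members were counted there, H2BC5 higher and H3C3 lower, against 10% of all genes tested. H3C3 was detected on 1 control array of each line and on no silenced array, so it met the detection filter through control arrays alone. A lower value after silencing was thus built into its selection, and no weight is put on the H3C3 count. The member median in SK-OV-3 was 0.13, against -0.01 over all genes. That median includes H2AC6, H2AC8 and H3C7, detected on no SK-OV-3 array. It also includes H3C3 and H4C8, detected there on 1 control array each and on no silenced array. Fitted on the 4 SK-OV-3 arrays alone, the median was 0.23 over 9 members. The difference in response between the lines was called for no member and for no gene in limma. At an unadjusted p below 0.05 it counted 3 members, against 10.1% of all genes, which were H4C3 at -1.27 (adjusted p = 0.486), H1-10 at -0.88 and H2AC6. The SK-OV-3 arrays of H2AC6 lay at background, so its difference between the lines is not given.

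**Figure D3:**
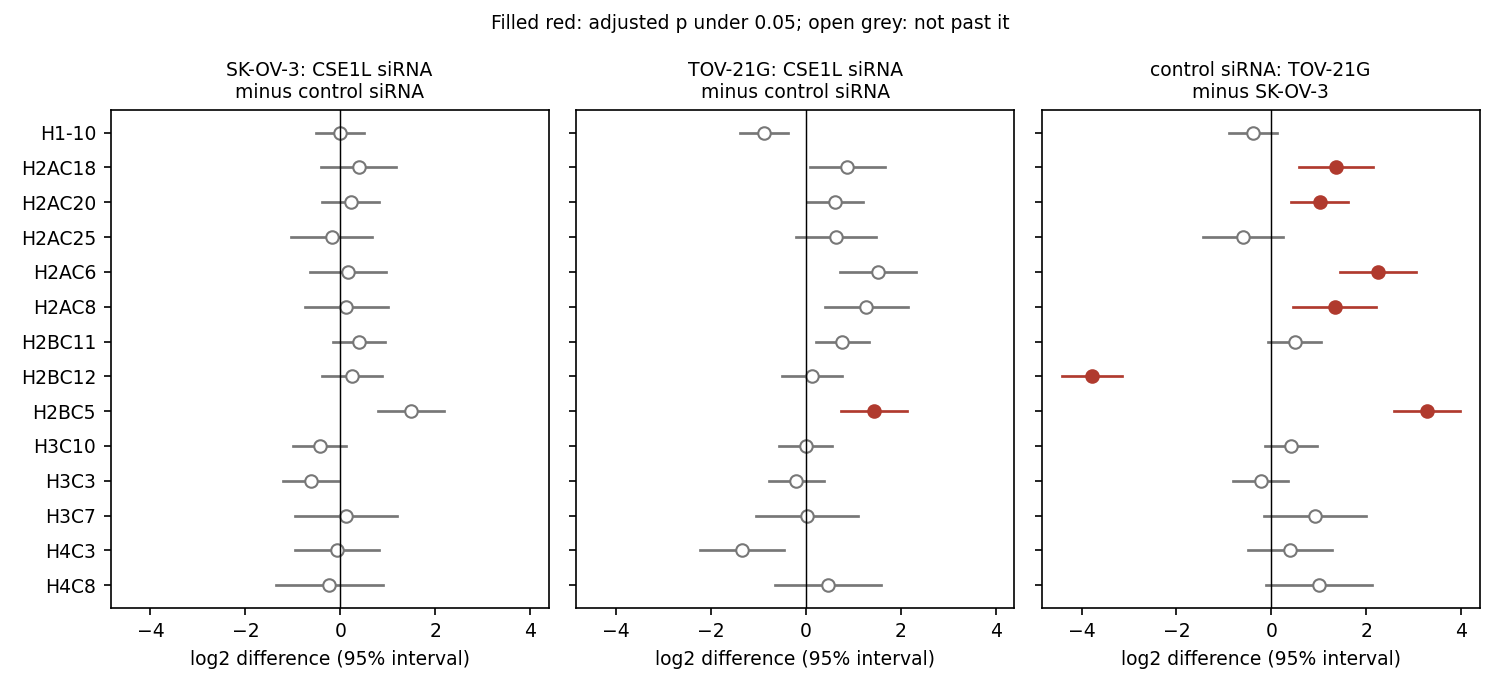
Log2 difference (x axis) with its 95% interval for the 14 tested histone genes, for CSE1L siRNA minus control siRNA in SK-OV-3 and in TOV-21G, and for TOV-21G controls minus SK-OV-3 controls. Filled red points have an adjusted p under 0.05, which holds for H2BC5 in TOV-21G and for 6 genes between the lines. H2AC6, H2AC8 and H3C7 were detected on no SK-OV-3 array, so their SK-OV-3 points lie at background. The TOV-21G silencing points of H2BC12 and H3C3 rest on 1 detected array each. The SK-OV-3 silencing points of H3C3 and H4C8 rest on 1 detected control array each.

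Without silencing, 4 H2A genes and H2BC5 were higher in TOV-21G than in SK-OV-3, and H2BC12 was lower. Comparing TOV-21G controls with SK-OV-3 controls, 6 of 14 members passed, against 33.8% of all genes tested. They were 5 higher members, against 17.1% of all genes, and 1 lower, against 16.7%. H2AC6, H2AC8 and H2BC12 met the detection filter through 1 line only, so a difference was built into their selection, and no weight is put on the count. The control arrays of the lines did not overlap for 11 of the 14 members, against 68.5% of all genes tested.

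H2BC5 had 11.10 and 11.77 in TOV-21G controls, against 8.23 and 8.09 in SK-OV-3 controls. It was 3.28 higher in TOV-21G on the log2 scale (SE 0.30, 9.68-fold, adjusted p = 0.000114). The second H2BC5 probe differed by 3.05 (adjusted p = 9.3e-05, all probes fitted). All 4 TOV-21G arrays lay above all 4 SK-OV-3 arrays for both probes.

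H2BC12 was the member with the opposite order. It had 6.26 and 6.23 in TOV-21G controls, not detected on either array, against 10.29 and 9.77 in SK-OV-3 controls. H2BC12 was lower in TOV-21G controls (adjusted p = 3.2e-05), by at least 11.6-fold on this background-corrected scale, a log2 bound of 3.54 that takes the lowest detected signal of each TOV-21G array. That bound holds for this scale alone, since the log2 difference was -2.29 with the authors' values, -2.52 without background correction and -3.30 with an offset of 50. Its neighbour H2BC11 had 9.05 and 9.24 in TOV-21G controls, against 8.58 and 8.73 in SK-OV-3 controls (difference 0.49, adjusted p = 0.153). How the promoter motifs bear on the level of either gene was not tested.

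In the H2A class, H2AC6 had 7.54 and 7.79 in TOV-21G controls, against 5.54 and 5.28, not detected, in SK-OV-3 controls. It was higher in TOV-21G controls (adjusted p = 0.00177), by at least 1.97-fold on this scale, a log2 bound of 0.98. With the authors' values its log2 difference was 0.82, which is below that bound. H2AC18 had 8.33 and 9.17 in TOV-21G controls, against 7.59 and 7.17 in SK-OV-3 controls, a difference of 1.37 (SE 0.34, adjusted p = 0.0163). H2AC20 was 1.02 higher in TOV-21G controls (SE 0.26, adjusted p = 0.0183), with 10.74 and 10.53 in TOV-21G controls and 9.44 and 9.79 in SK-OV-3 controls. H2AC8 also passed (adjusted p = 0.0276), but it was detected on 1 of 2 TOV-21G control arrays and on no SK-OV-3 array, and no fold is given. H2AC25, H1-10, H4C3, H4C8 and the 3 H3 genes did not pass between the lines, with differences of -0.60 for H2AC25, -0.38 for H1-10 and 0.40 for H4C3. Leaving out 1 control array ended the call of H2AC18 for the array of experiment 2 of either line (adjusted p = 0.0976 and 0.0967), and that of H2AC20 for either TOV-21G array or the SK-OV-3 array of experiment 1 (0.0519 to 0.0982). That of H2AC8 ended for any 1 control array (0.0862 to 0.114), and also without background correction (0.116), with an offset of 50 (0.0658) and with the authors' normalized values (0.252).

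Genes that act on histones were set beside the members. The replication-independent histone variants had 8 of 11 listed genes tested. In silenced TOV-21G cells 1 of the 8 fell, against 2.08% of all genes tested. It was CENPA, the centromeric H3 variant, with 9.21 and 8.59 after silencing against 11.37 and 11.44 in controls (difference -2.50, SE 0.27, adjusted p = 0.0149). In SK-OV-3 the CENPA difference was -0.35 (adjusted p = 0.744). The variants had a median difference of -0.34 in TOV-21G and -0.03 in SK-OV-3.

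Histone chaperones, which hand histones to DNA, had 12 of 19 listed genes tested, and 5 fell in silenced TOV-21G cells while none rose, against 2.08% of all genes tested that fell and 1.09% that rose. The median chaperone difference was -0.74 in TOV-21G and -0.24 in SK-OV-3, where none was called in limma and 1 was lower at an unadjusted p below 0.05, against 4.94% of all genes. ASF1B, an H3 and H4 chaperone, had 7.66 and 7.47 in silenced TOV-21G cells, against 9.79 and 9.32 in controls (difference -1.99, SE 0.31, adjusted p = 0.0257). CHAF1A and CHAF1B, subunits of the CAF-1 complex that loads H3 and H4 behind the replication fork, differed by -1.53 (adjusted p = 0.0261) and -1.81 (adjusted p = 0.0298). NASP, which holds a pool of H3 and H4, differed by -1.76 (adjusted p = 0.0257), and HJURP, the CENPA chaperone, by -1.45 (adjusted p = 0.0325).

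Of 19 tested S phase genes out of 23 listed, 8 fell in silenced TOV-21G cells and none rose, against 2.08% and 1.09% of all genes tested. All 19 were below 0 there, against 49.5% of all genes. Their median was -1.38 in TOV-21G and -0.22 in SK-OV-3. In SK-OV-3 limma called none of the 19, and 2 were lower at an unadjusted p below 0.05, against 4.94% of all genes. The S phase genes past the threshold in TOV-21G included RRM2, a subunit of ribonucleotide reductase (difference -2.41, adjusted p = 0.0149), and the replication fork gene CDC45 (difference -2.77, adjusted p = 0.0285). MCM2, MCM4 and MCM6 of the replicative helicase differed by -1.38, -1.71 and -1.52, with adjusted p of 0.0262, 0.0210 and 0.0257. CCNA2, CDT1 and GINS2 also passed. The H2BC5 rise and the fall of these S phase genes were thus measured in the same TOV-21G arrays, and how far cell cycle position bears on either was not tested. With the replicate block 13 of the 19 were called, all lower, against 3.76% of all genes called lower in that fit. Leaving out either TOV-21G control array, or the TOV-21G silenced array of experiment 2, left CENPA, the chaperones and the S phase genes uncalled (adjusted p of CENPA 0.0748 to 0.103), and the comparison then called at most 1 of all genes.

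Genes for histone mRNA synthesis and 3′ end processing had 16 of 20 listed members tested, and none passed in limma in TOV-21G, where 1 was higher and 3 lower at an unadjusted p below 0.05, against 9.36% and 10.5% of all genes. The 2 with the smallest p were NPAT, the coactivator of histone transcription in S phase (difference -0.85, adjusted p = 0.114), and NFYB, a subunit of NF-Y (difference -0.84, adjusted p = 0.185). All 6 histone import receptors were tested and none passed in either line in limma, adjusted or not. Of all genes, 3.17% passed adjusted and 19.9% unadjusted in TOV-21G, and 0.0107% and 10% in SK-OV-3. At these shares a count of 0 among 6 genes says little about the receptors. TNPO1, transportin 1, differed by 0.66 in TOV-21G (adjusted p = 0.301), and IPO7, importin 7, by 0.69 (adjusted p = 0.609).

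**Figure D4:**
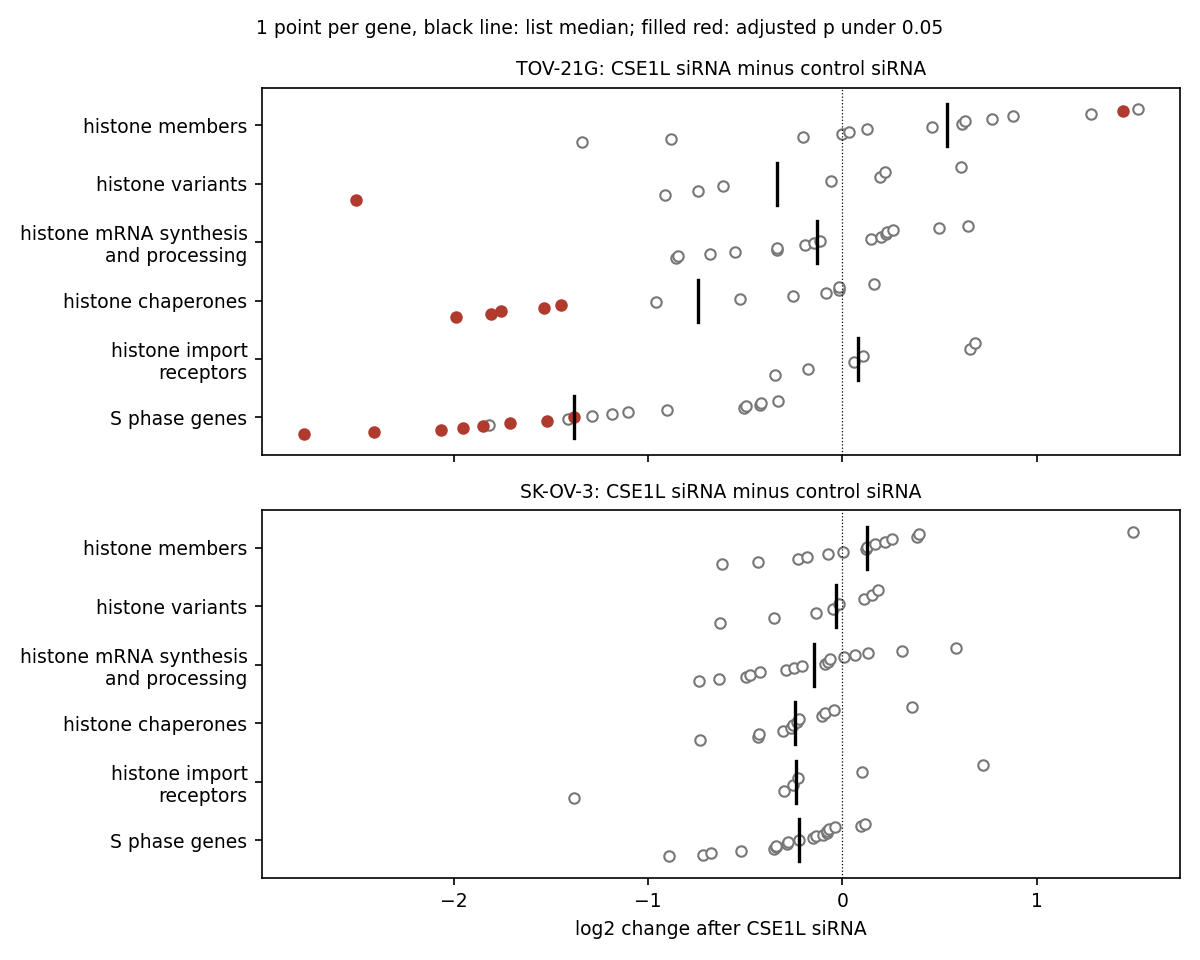
Log2 difference after CSE1L siRNA (x axis) for each tested gene of 6 gene groups (rows), in TOV-21G above and SK-OV-3 below. A point is 1 gene, a black line the group's median, and filled red an adjusted p under 0.05. In TOV-21G the histone members have a median of 0.54 (0.10 to 0.88 on leaving out 1 array), the chaperones -0.74 and the S phase genes -1.38. The histone median joins classes of different sign, from 0.88 in H2A to -0.88 in the 1 tested H1 gene.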

How the data were processed

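RNA of 8 samples was measured on Illumina expression arrays. Per the file headers, the deposited table holds non-normalized bead intensity per probe and array, with a detection p-value beside each intensity. A second deposited table holds intensity values that the authors had normalized, and it served as an alternative. Their method is not given in the sources used here. The software was BeadStudio 2, per the submitters' processing notes. Intensities were corrected by normexp using the detection p-values (offset 16), put on the log2 scale and quantile normalized in limma 3.58.1 with R 4.3.3. Probes with a detection p below 0.01 on 2 or more arrays were kept, and a gene was read from its kept probe of highest mean. Symbols came from the platform annotation, and positions and promoters from RefSeq.

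limma modelled the 4 group means of all 8 arrays. Adjusted p-values are limma's, by Benjamini-Hochberg over the 9377 genes and unnamed probes tested. A gene detected on neither array of 1 group has only a bound for its fold. Arrays limit precision by their number.

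The members, gene lists and tests were chosen with earlier results of these data known. Named genes were CSE1L, the members past the threshold, the brightest and most changed members of each class and line, and from each list the genes past the threshold or else the 2 with the smallest p in TOV-21G. All 14 tested members are given. Same-numbered arrays correlated in their deviations from the group means by 0.561 for TOV-21G, 0.126 for SK-OV-3 and -0.137 across lines, so the number was used as a block within a line in an alternative. With 1 correlation per line this pairing is not certain. The scripts were tested on simulated data. Alternatives were the block, leaving out each array, median scaling, other background corrections, the authors' values, other detection filters, all probes, a threshold of 0.01, a trended robust spread and single-line fits. For the other gene lists they were added after seeing the data. No slide was given. A promoter is the first RefSeq entry of a gene.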

Additional observations from a re-analysis of the deposited data

How the results depend on the processing

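Each value was recomputed under the alternatives, and the cause of each shift was not tested. In TOV-21G silencing, 1 of 14 members was called in the main analysis, against 297 of all 9377 genes tested. That count was 3 with the replicate block, against 590 of all genes. It was 4 without background correction (527) or with the values normalized by the authors (419). It was 3 with a trended and robust spread (515) and 2 with an offset of 50 (422). It was 2 of 8 members with detection in all 8 arrays (349 of 6726 genes). Fitting every probe, it was 2 of 15 (334 of 10888). It was 0 with no detection filter, with an adjusted p threshold of 0.01 or with only the 4 arrays of the line, and 0 to 2 on leaving out 1 array. No gene at all was called at the 0.01 threshold or with only the 4 arrays of the line. With no detection filter 65 members were tested, and 238 of all 19615 genes were called. Without background correction and with the authors' values the 4 members called were H2BC5 and H2AC6, higher, and H1-10 and H4C3, lower. Under median scaling the count of 1 was H2AC6 and not H2BC5. On the average of both lines the count was 2 with the replicate block or all probes, 0 at the 0.01 threshold, and 0 to 2 on leaving out 1 array. H2BC5 passed in TOV-21G in 7 of 19 alternatives and on the average of both lines in 10 of 18. In SK-OV-3, and for the difference between the lines, the count was 0 in every alternative run. Over all genes, the average of both lines called 518 with the block, 217 of 10888 with all probes and 1 at the 0.01 threshold. Between the control lines the member count was 6 of 14 in the main analysis (3166 of all 9377 genes) and 8 with the replicate block (3906). It was 7 of 65 with no detection filter (3064 of 19615) and 7 of 15 with all probes (3585 of 10888). It was 5 without background correction (3375), with an offset of 50 (3286) or with the authors' values (3015). It was 3 of 8 with detection in all 8 arrays (1996 of 6726) and 3 of 14 at the 0.01 threshold (1874). H2BC5, H2BC12 and H2AC6 passed in all alternatives in which they were tested. The H2AC6 difference between control lines was 0.82 with the authors' values, 1.02 without background correction and 1.63 with an offset of 50, and that of H2BC12 was -2.29, -2.52 and -3.30.

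The median difference of the members in TOV-21G silencing was 0.41 without background correction, 0.36 with the authors' values, 0.035 over all 65 genes with no detection filter and 0.10 to 0.88 on leaving out 1 array. Between the control lines it was 0.40, 0.53 with an offset of 50, 0.38, 0.059 with no detection filter, 0.45 with detection in all 8 arrays, 0.93 with all probes and 0.49 to 0.76 on leaving out 1 array. For the difference between the lines it was 0.011 with no detection filter and 0.18 to 0.55 on leaving out 1 array. On leaving out 1 array it was -0.07 to 0.23 in SK-OV-3 and 0.06 to 0.43 on the average of both lines.

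Signs turned only for values that did not pass the test. The SK-OV-3 difference of H4C3 was 0.026 under median scaling and 0.0077 with the authors' values. The between-line difference of H2BC5 was 0.23 without background correction, 0.038 with an offset of 50 and 0.29 with the authors' values. On leaving out 1 array, SK-OV-3 differences ranged over -0.11 to 0.11 for H1-10, -0.069 to 0.51 for H2AC20, -0.37 to 0.0038 for H2AC25, -0.19 to 0.54 for H2AC6, -0.0094 to 0.51 for H2BC12, -0.15 to 0.39 for H3C7 and -0.35 to 0.20 for H4C3. TOV-21G differences ranged over -0.14 to 0.39 for H2BC12, -0.11 to 0.10 for H3C10, -0.63 to 0.46 for H3C7, -0.23 to 1.16 for H4C8 and -0.25 to 1.61 for IPO7. Averages of both lines ranged over -0.038 to 0.49 for H2AC25, -0.25 to 0.29 for H3C7 and -0.23 to 0.47 for H4C8. Differences between lines ranged over -0.39 to 0.14 for H2BC12, -0.39 to 0.29 for H2BC5 and -0.75 to 0.34 for H3C7, and the CSE1L difference between control lines over -0.65 to 0.72.

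With 2 arrays per group, probes near background and probes that can read several gene copies, a missed threshold does not show that a histone gene did not change. Leaving 1 array in a group assumes that it varies like the other groups. No value is given for single-line fits where both lines enter, and the slide could not be used as a block because none was given.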
